A study of Mus musculus with 48 samples.

Results

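Messenger RNA of 10 enzymes that make and conjugate bile acids was followed through 16 mouse samples from livers, isolated hepatocytes, in vitro spheroids, engrafted spheroids and irises. The enzymes were chosen by name, from textbook knowledge of the pathway, and are 10 of the 46517 genes in the count table. The samples were 3 livers of donor mice, 3 preparations of hepatocytes isolated from donor livers, 2 samples of spheroids made from such hepatocytes and kept in vitro, 5 explants taken 2 months post-transplant (numbered 1, 2, 4, 5 and 6) and 3 irises without explants. All were labelled WT Albino and strain C57BL/6N, whereas the study's methods list albino B6/J mice and no C57BL/6N. No gene was altered and no drug was given as a group treatment. By the study's methods the mice were adult and of both sexes, but the sex and age behind each sample, the culture day of the in vitro spheroids and the hour of collection are not given in the sources used here. Hepatocytes were isolated by collagenase perfusion and a Percoll gradient, which does not remove every other liver cell, and the spheroid medium contained dexamethasone. An explant is a spheroid that had engrafted in the anterior chamber of the eye (ACE) of a recipient mouse, dissected together with the iris around it. Its RNA is therefore a mixture of graft and iris, and values "corrected" for iris are those from which the mean iris level, times the iris share of that explant, was subtracted.

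Bile acids are made from cholesterol in hepatocytes by a classic pathway, which starts in the endoplasmic reticulum with Cyp7a1, and an alternative pathway, which starts in mitochondria with Cyp27a1 and continues with Cyp7b1. Both routes then use the same enzymes to rearrange the steroid ring and to shorten the side chain in peroxisomes, and the acid is finally joined to taurine or glycine. The ratio of the routes and the activity of Cyp8b1 are among the things that set which bile acids the liver makes.

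Each member lies at 1 place in the mouse genome, given here in build GRCm38 as the counted gene models place it. The classic pathway is represented by Cyp7a1, the rate-limiting cholesterol hydroxylase (chr4:6265612-6275633, minus strand), and Cyp8b1, the hydroxylase needed for cholic acid (chr9:121914356-121916305, minus strand). The alternative pathway is represented by Cyp27a1, a mitochondrial sterol hydroxylase (chr1:74713574-74737892, plus strand), and Cyp7b1, the oxysterol hydroxylase that follows it (chr3:18071950-18243338, minus strand). The shared enzymes are Hsd3b7, a dehydrogenase of the ring (chr7:127785608-127803802, plus strand), Akr1d1, the reductase that saturates the ring (chr6:37530173-37568815, plus strand), Amacr, the racemase of the side chain (chr15:10981756-10996624, plus strand), and Scp2, whose long form is the peroxisomal thiolase of the side chain (chr4:108043839-108144998, minus strand). Conjugation is represented by Slc27a5, which activates bile acids with coenzyme A (chr7:12988346-12998192, minus strand), and Baat, which transfers them to the amino acid (chr4:49489422-49506557, minus strand). The counted model of Hsd3b7 reaches further upstream than that of GENCODE M21 and shares 3523 exonic bases, or 57.25% of its length, with Setd1a, so reads there were counted for both genes. Setd1a counts were 0.690% to 4.76% of Hsd3b7 counts in livers, hepatocytes and spheroids, 8.57% to 18.3% in explants and 18.01% to 21.2% in irises, which bounds the share of Hsd3b7 reads that could belong to Setd1a.

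Promoter sequences from RefSeq (GRCm38.p6) were at hand for 5 of the 10 members. Shown are the 250 bases before the transcription start of Cyp8b1 and Akr1d1, whose levels differed most between the 2 spheroid samples among members with a sequence, and of Cyp27a1, which differed little (1.26-fold). They were picked after these values were seen. Capitals mark matches on either strand to CAAAGTCCA (a site of the type bound by HNF4), TCAAGG or CCAAGG (cores of sites of the type bound by LRH-1, the product of Nr5a2), AGGTCA (the element that many nuclear receptors bind singly or in pairs) and TATAAA (the TATA box). The windows are chr9:121916306-121916555 on the minus strand for Cyp8b1, chr6:37529923-37530172 on the plus strand for Akr1d1 and chr1:74713285-74713534 on the plus strand for Cyp27a1.
Cyp8b1: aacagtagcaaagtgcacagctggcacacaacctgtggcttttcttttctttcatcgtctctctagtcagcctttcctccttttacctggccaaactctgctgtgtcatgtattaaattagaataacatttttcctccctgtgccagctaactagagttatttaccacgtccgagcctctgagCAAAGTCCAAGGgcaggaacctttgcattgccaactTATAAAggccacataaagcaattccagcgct
Akr1d1: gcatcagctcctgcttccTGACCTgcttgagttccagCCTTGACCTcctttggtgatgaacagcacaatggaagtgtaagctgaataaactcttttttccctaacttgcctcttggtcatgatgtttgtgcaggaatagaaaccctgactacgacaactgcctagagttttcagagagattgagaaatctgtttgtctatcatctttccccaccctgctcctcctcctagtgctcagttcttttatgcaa
Cyp27a1: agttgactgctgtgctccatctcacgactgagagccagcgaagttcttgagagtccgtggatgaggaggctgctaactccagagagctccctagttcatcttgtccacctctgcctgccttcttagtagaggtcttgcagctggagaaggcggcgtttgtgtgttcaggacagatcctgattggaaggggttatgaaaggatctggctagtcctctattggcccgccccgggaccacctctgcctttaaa
With -1 as the last base before the start, the Cyp8b1 window holds CAAAGTCCA from -67, CCAAGG from -61, which overlaps it, and TATAAA from -31. The Akr1d1 window holds AGGTCA on the other strand from -232 and -210, the second overlapping TCAAGG on the other strand from -213. The Cyp27a1 window holds none of these letters. It ends at 74713534, ahead of the counted gene start at 74713574, and the bases between were not searched. The Scp2 window, not shown, holds TCAAGG and AGGTCA, and Scp2 differed 1.39-fold between the spheroid samples. Whether such matches bear on the difference between the spheroid samples was not tested. Among 32851 promoter windows of the same length, 0.384% held CAAAGTCCA, 18.2% CCAAGG, 12.5% TCAAGG, 14% AGGTCA and 12.4% TATAAA. These are matches of letters and no measurement of binding.

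Between 2718518 and 6789648 reads were counted per sample, and each value below rests on the sum of 3 technical libraries. Levels are given as TPM, shares of all transcripts after division by gene length, for Hsd3b7 on its long counted model. Any comparison between genes rests on that division, which was not checked for these libraries. The 20 hepatocyte markers summed to 30217 to 32441 TPM in the livers, 30896 to 36876 in the hepatocytes, 28184 to 29200 in the spheroids and 2333 to 2846 in the irises. In the explants they summed to 10551 to 16206 before correction and to 35494 to 46471 after it. The 10 iris markers summed to 532 to 547 TPM in the livers and 8799 to 9323 in the irises, and to 194 to 3417 in the corrected explants. Liver 1 stood apart from livers 2 and 3 in genes known to differ between the sexes. Its Cyp4a12a, high in male mice, was 35.4 TPM against 348 and 336, and its Cyp2b9, high in female mice, was 307 TPM against 0.375 and 0. Ddx3y of the Y chromosome was nevertheless at 35.1 TPM or more in all 16 samples, and Xist at 0.335 TPM or less.

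**Figure D1:**
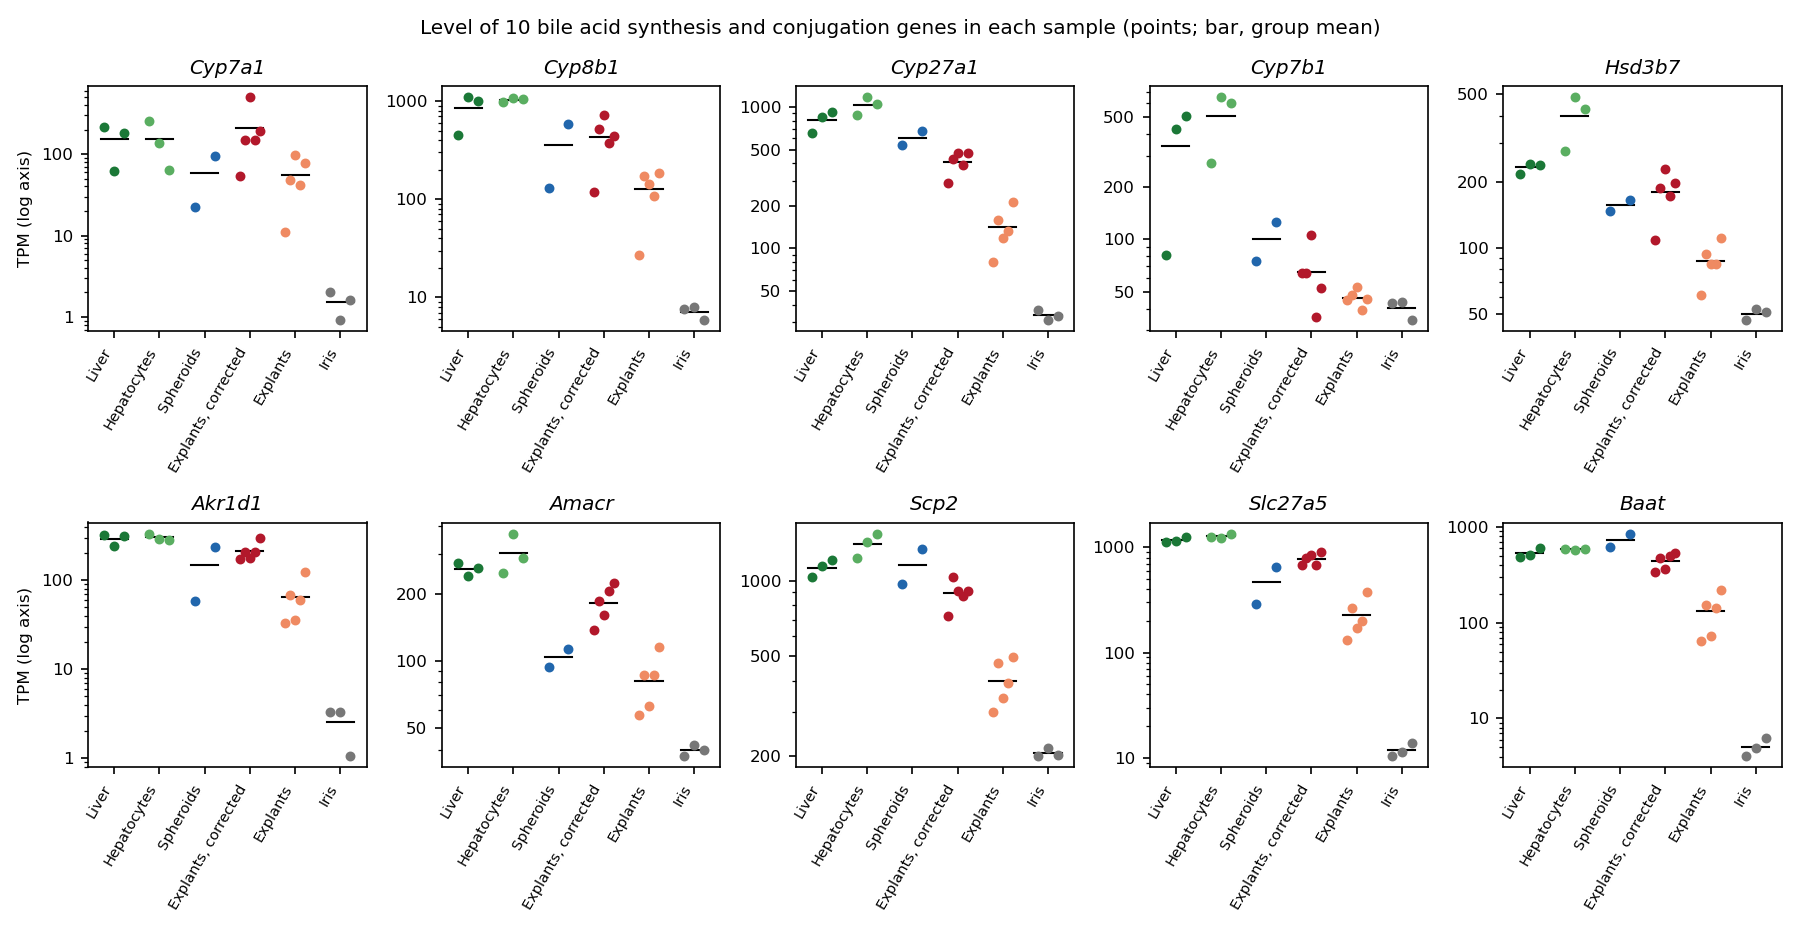
TPM (log axis) of the 10 members in each sample, 1 point per sample and a bar at the group mean, for 3 livers, 3 hepatocyte preparations, 2 spheroid samples, 5 explants after and before iris correction, and 3 irises. Cyp7b1 is the member whose explants before correction (39.2 to 52.9 TPM) lay closest to the irises (34.4 to 43.9 TPM), and Baat is highest in the spheroids.

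The first question was how the pathway in spheroids kept in vitro compared with the hepatocytes they are made from. Transcripts of Cyp7b1, Amacr, Slc27a5, Hsd3b7 and Cyp27a1 were lower in the spheroids, by 2.66 to 1.09 on the log2 scale, and Baat, the transferase of conjugation, was among those that did not pass the test. Of the 10 members 5 fell and 0 rose at an adjusted p under 0.05 in edgeR (quasi-likelihood test, Benjamini-Hochberg over all genes). Of all 12247 genes tested, 13.4% fell and 12.5% rose, and the median log2 fold change was -1.65 for the members and 0.01 for all genes. Without spheroid 2, which leaves 1 spheroid sample assumed to vary like the hepatocytes, the members called were 9, and without hepatocyte preparation 3 they were 3 (Cyp7b1, Hsd3b7 and Amacr). Of the 20 hepatocyte markers, 0 rose and 5 fell in the same comparison, with a median log2 fold change of -0.61.

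Cyp7b1 was 274, 651 and 604 TPM in the hepatocytes and 75.1 and 125 TPM in the spheroids. The groups did not overlap, and hepatocyte preparation 1 was the lowest of its group. The log2 fold change was -2.66 (standard error 0.47, edgeR adjusted p = 0.0062). Cyp27a1, ahead of it in the alternative pathway, was 877, 1173 and 1044 TPM against 535 and 675 TPM. Its spheroid values also lay below all hepatocyte values, with a log2 fold change of -1.09 (standard error 0.26, edgeR adjusted p = 0.020). Over all alternatives Cyp27a1 ran from -1.40 to -0.35 and kept its call in 12 of 17. It lost its call when spheroid 1, hepatocyte preparation 2 or hepatocyte preparation 3 was left out, at log2 fold changes of -0.83, -0.98 and -1.03 for Cyp27a1.

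The classic pathway was spread too widely to be called. Cyp7a1 was 256, 137 and 63.3 TPM in the hepatocytes and 22.6 and 94.5 TPM in the spheroids. Spheroid 2 thus lay within the hepatocyte range and spheroid 1 below it, and the log2 fold change of -1.63 (standard error 0.71) did not pass the test (edgeR adjusted p = 0.13). Cyp8b1 was 987, 1069 and 1056 TPM in the hepatocytes against 131 and 589 TPM in the spheroids. Both spheroids were below every hepatocyte preparation, but they differed 4.51-fold from each other, and the log2 fold change of -1.79 (standard error 0.59) did not pass (edgeR adjusted p = 0.061).

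Among the shared enzymes, Amacr had the smallest error. It was 248, 371 and 290 TPM in the hepatocytes and 94.2 and 113 TPM in the spheroids, with a log2 fold change of -1.86 (standard error 0.25, edgeR adjusted p = 0.0023). Hsd3b7 was 276, 486 and 431 TPM against 148 and 165 TPM, with a log2 fold change of -1.67 (standard error 0.31, edgeR adjusted p = 0.0076). With every Setd1a count taken away from it, Hsd3b7 gave -1.69 and stayed called. Akr1d1 was 334, 293 and 283 TPM in the hepatocytes but 58.3 and 235 TPM in the spheroids. All spheroid values were lower and spheroid 1 was far below spheroid 2, so that its log2 fold change of -1.31 (standard error 0.54) did not pass (edgeR adjusted p = 0.11). Scp2 was 1236, 1430 and 1540 TPM in the hepatocytes and 967 and 1340 TPM in the spheroids, overlapping ranges, and was not called.

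The enzymes of conjugation parted. Slc27a5, the ligase that acts first, was 1240, 1236 and 1349 TPM in the hepatocytes and 286 and 654 TPM in the spheroids. The groups did not overlap, and the log2 fold change was -1.73 (standard error 0.40, edgeR adjusted p = 0.019); without hepatocyte preparation 3 the log2 fold change of Slc27a5 was -1.64 and not called. Baat, which acts next, was 584, 576 and 593 TPM in the hepatocytes and 611 and 851 TPM in the spheroids. Its spheroid values were the higher ones in TPM, whereas in edgeR, which scales samples to the bulk of genes, the fitted difference was 0.01 on the log2 scale (standard error 0.24, edgeR adjusted p = 0.97). When counts were scaled to the 20 hepatocyte markers instead, the median of all genes moved to 0.75 and Baat, at 0.73, was called higher.

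**Figure D2:**
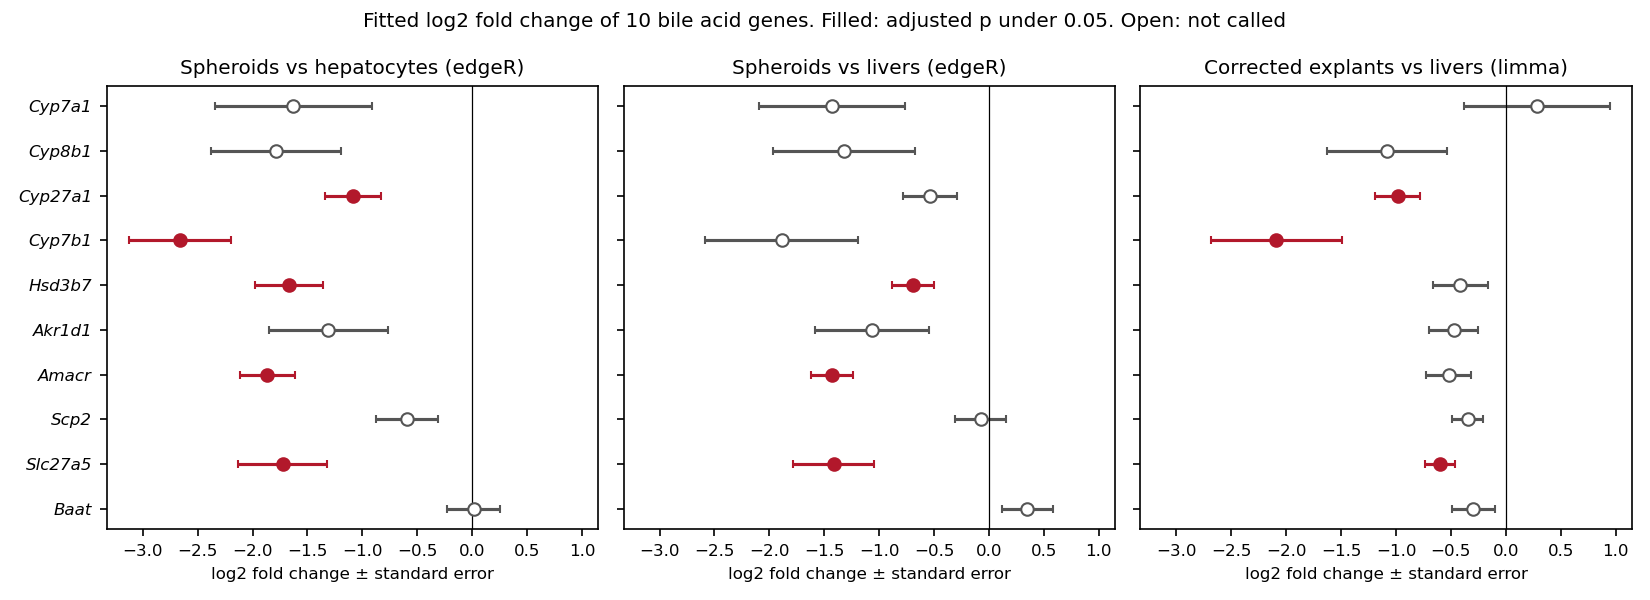
Fitted log2 fold changes (x axis) of the 10 members with standard errors, in spheroids against hepatocytes, spheroids against livers and corrected explants against livers. Filled points passed an adjusted p under 0.05, which were 5, 3 and 3 members, all of them on the lower side.

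Against whole livers, with the same 2 spheroid samples, fewer differences passed. Amacr, Slc27a5 and Hsd3b7 were lower, so that 3 of 10 members fell and 0 rose (edgeR). Of the 12959 genes tested, 15% fell and 15% rose. The median log2 fold change was -1.19 for the members and 0.01 for all genes.

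Amacr was 274, 241 and 261 TPM in the livers, all above both spheroids, with a log2 fold change of -1.43 (standard error 0.19, edgeR adjusted p = 0.0024). Slc27a5 was 1120, 1161 and 1255 TPM in the livers, above both spheroids, with a log2 fold change of -1.42 (standard error 0.36, edgeR adjusted p = 0.023). Hsd3b7 was 217, 243 and 239 TPM in the livers, with a log2 fold change of -0.69 (standard error 0.19, edgeR adjusted p = 0.030). Without liver 2 or without liver 3 only Amacr kept its call, at log2 fold changes of -1.47 and -1.43, and without spheroid 1 the log2 fold change of Hsd3b7, -0.53, was no longer called. Without spheroid 2, which leaves 1 spheroid sample assumed to vary like the livers, 6 members were called.

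Cyp7b1 was 81.4, 430 and 507 TPM in the livers. Liver 1 was close to the spheroids and livers 2 and 3 were far above them, and the log2 fold change of Cyp7b1 of -1.89 (standard error 0.70) did not pass (edgeR adjusted p = 0.073). Without liver 1, the liver with the changed Cyp4a12a and Cyp2b9, the log2 fold change of Cyp7b1 was -2.37 and was called. Whether the state of liver 1 accounts for its Cyp7b1 was not tested. Cyp8b1 was likewise lower in liver 1, at 450 TPM against 1098 and 998 TPM. Its log2 fold change in spheroids was -1.32 (standard error 0.65, edgeR adjusted p = 0.15).

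Cyp7a1 was 212, 61.7 and 179 TPM in the livers, and here it was liver 2 that was low. Cyp7a1 is known to follow a daily rhythm, and the rhythmic gene Dbp was 55.6, 51.6 and 38.1 TPM in the livers and 5.68 and 6.83 TPM in the spheroids. Of 9 rhythmic genes tested 7 fell in spheroids against livers (edgeR), and their part in the Cyp7a1 values was not tested. The remaining members, Cyp27a1 (655, 852 and 922 TPM in the livers), Akr1d1 (325, 241 and 314 TPM), Scp2 (1031, 1145 and 1209 TPM) and Baat (484, 512 and 603 TPM), were not called. Both spheroids lay above every liver in Baat.

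The 2 spheroid samples differed from each other in several members. Spheroid 2 exceeded spheroid 1 in all 10 members, from 1.12-fold in Hsd3b7 to 4.51-fold in Cyp8b1, with a median of 1.53-fold. Cyp7a1 (4.18-fold) and Akr1d1 (4.03-fold) stood beside Cyp8b1 at the upper end. For the 20 hepatocyte markers the same ratio ran from 0.635 to 1.77 with a median of 1.07. How many of all genes were higher in spheroid 2 was not counted, so the direction shared by all 10 members may not be particular to them. With 1 sample on each side, the difference between the spheroids has no replicate check.

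Isolation itself was not accompanied by a called change of any member. Between hepatocytes and livers 0 of 10 members passed in edgeR and 0 in limma-voom, while 1, Hsd3b7, passed in DESeq2, and 4 had an unadjusted p under 0.05. Of the 12236 genes tested in edgeR, 0.785% rose, 2.84% fell and 3100 had an unadjusted p under 0.05. The fitted log2 fold changes ran from 0.15 for Cyp7a1 to 0.91 for Hsd3b7 (standard error 0.21, edgeR adjusted p = 0.054). In 2 members, Hsd3b7 and Scp2, the 3 hepatocyte values all lay above the 3 liver values, as they did in 7.35% of all genes tested. Without hepatocyte preparation 1 the log2 fold change of Hsd3b7 was 1.13 and was called. The comparison shares its livers and its hepatocytes with those above.

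In the irises every member was lower than in the livers: 10 of 10 fell (edgeR), where 34.5% of 15459 genes fell and 39.1% rose. The members formed 2 kinds. Cyp7a1, Cyp8b1, Akr1d1, Slc27a5 and Baat were at 1.00%, 0.845%, 0.875%, 1.00% and 0.953% of their liver mean. For these 5 genes the irises held between 5 and 56 counts each. The 20 hepatocyte markers were at 0.996% to 25.2% of their liver mean, with a median of 3.11%, and Apob (1.01%) was near the lower end. Whether the counts of these 5 genes come from iris cells was not tested. Cyp27a1 was at 4.18%, Cyp7b1 at 11.9%, Amacr at 15.4%, Scp2 at 18.2% and Hsd3b7 at 21.6% of the liver mean. Scp2 was therefore 199, 215 and 201 TPM and Cyp7b1 43.2, 43.9 and 34.4 TPM in tissue without graft.

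The explants contain this background. Against irises, 9 of 10 members were higher in the explants (edgeR), where 9.04% of 16764 genes rose and 2.74% fell. Cyp7a1 was 10.95, 48.5, 96.1, 42.2 and 78.6 TPM in explants 1, 2, 4, 5 and 6 and at most 2.01 TPM in the irises, with a log2 fold change of 5.28 (standard error 0.80, edgeR adjusted p = 0.0033). Baat was 64.5 to 221 TPM (median 143) against at most 6.25 TPM, with a log2 fold change of 4.81 (standard error 0.58, edgeR adjusted p = 0.0011). Akr1d1, Slc27a5 and Cyp8b1 rose by 4.78, 4.40 and 4.27 on the log2 scale, Cyp27a1 by 2.18, and Amacr, Scp2 and Hsd3b7 by 1.15, 1.07 and 0.90. Cyp7b1 was the exception. Its explant values were 44.7, 47.9, 52.9, 39.2 and 45.5 TPM, overlapping the irises, and the log2 fold change was 0.28 (standard error 0.13, edgeR adjusted p = 0.20).

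**Figure D3:**
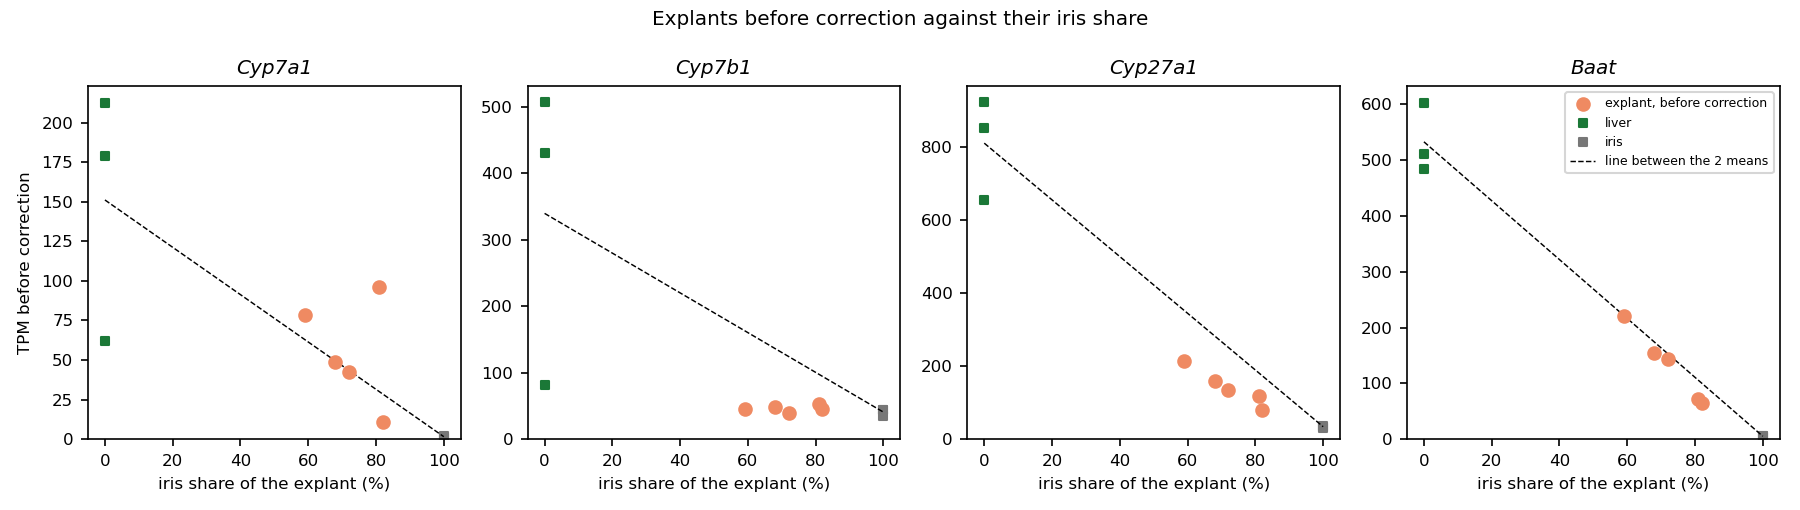
TPM before correction (y axis) of Cyp7a1, Cyp7b1, Cyp27a1 and Baat in the 5 explants against the iris share of each explant in percent (x axis), with the 3 livers at 0, the 3 irises at 100 and a line between their means. Baat and Cyp27a1 lie on or below the line, Cyp7b1 stays at 39.2 to 52.9 TPM whatever the share, and Cyp7a1 of explant 4 (96.1 TPM) lies far above the line.

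The question asked of the explants was how hepatocyte functions stood in the graft after 2 months. The iris shares of explants 1, 2, 4, 5 and 6 were 82%, 68%, 81%, 72% and 59%. Corrected with these shares, the explants were compared with the livers by limma on log2(TPM + 1), and the fold changes are on that scale. Of 10 members 3 fell and 0 rose, where 3.50% of 21002 genes fell and 12.2% rose. The median log2 fold change was -0.50 for the members and 0.61 for all genes. Both members listed under the alternative pathway, Cyp27a1 and Cyp7b1, were called lower, and neither Cyp7a1 nor Cyp8b1 was called. The fitted change of Cyp8b1 (-1.08, standard error 0.55) was nevertheless as large as that of Cyp27a1 (-0.99), so these calls do not set the routes apart. Of the 20 hepatocyte markers 7 rose and 3 fell in this comparison, which shares its livers with those above.

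Cyp27a1 was 290, 427, 476, 390 and 471 TPM in the corrected explants, all below the lowest liver at 655 TPM. Its log2 fold change was -0.99 (standard error 0.20, limma adjusted p = 0.013), and it lost its call without liver 2 (-0.94) or liver 3 (-0.88). The iris share matters to all 3 calls: with the share from the median ratio of iris genes, Cyp27a1, Cyp7b1 and Slc27a5 were at -0.62, -1.97 and -0.21 and none was called, and with the deposited correction Cyp27a1 alone was (-1.004). Cyp7b1 was 64.0, 63.8, 106, 35.7 and 52.6 TPM, below livers 2 and 3 and on both sides of liver 1 at 81.4 TPM. Its log2 fold change was -2.09 (standard error 0.60, limma adjusted p = 0.044). That call was kept in 6 of 19 alternatives, among them without explant 4 (-2.29) and without liver 1 (-2.93), and lost without each other sample, at -2.11 for explant 1 and explant 2, -1.90 for explant 5, -2.04 for explant 6, -1.73 for liver 2 and -1.61 for liver 3. Before correction, Cyp7b1 of the explants was not called against irises, and its corrected level rests on the remainder after subtraction.

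Slc27a5 was 685, 795, 844, 686 and 900 TPM in the corrected explants, all below the livers at 1120 TPM or more, with a log2 fold change of -0.60 (standard error 0.14, limma adjusted p = 0.018). The call was lost without any 1 of the 3 livers, at -0.63, -0.61 and -0.55 for Slc27a5 without liver 1, 2 and 3. Amacr was 137 to 223 TPM (median 186) and below every liver too, but its log2 fold change of -0.52 did not pass (standard error 0.21, limma adjusted p = 0.12). Baat, at 335, 473, 361, 497 and 531 TPM, overlapped the livers and was not called.

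Cyp7a1 was 54.0, 148, 499, 147 and 189 TPM in the corrected explants against 212, 61.7 and 179 TPM in the livers. The ranges overlapped at both ends, and explant 4 alone was above every liver. The log2 fold change was 0.28 (standard error 0.66, limma adjusted p = 0.78), and an error of this size does not show that graft and liver were alike. Cyp8b1 was 118, 520, 716, 371 and 441 TPM, with explant 1 lowest, and its log2 fold change of -1.08 (standard error 0.55) did not pass (limma adjusted p = 0.22). Akr1d1 (173 to 297 TPM), Hsd3b7 (109 to 229 TPM) and Scp2 (723 to 1035 TPM) were not called.

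Between corrected explants and in vitro spheroids 0 of 10 members passed in limma, and 4 had an unadjusted p under 0.05. Of 21217 genes, 5.08% rose, 1.02% fell and 3902 had an unadjusted p under 0.05. All 5 explants lay above both spheroids in 2 members, Amacr and Slc27a5, and below them in 2, Cyp27a1 and Baat, where 17.1% of all genes tested lay wholly above and 9.47% wholly below. The log2 fold changes were 0.79 for Amacr, 0.84 for Slc27a5, -0.57 for Cyp27a1 and -0.74 for Baat, with standard errors of 0.28, 0.30, 0.24 and 0.25. No other tool was run on the corrected values.

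Ratios within a sample do not depend on scaling between samples, but those of explants depend on the iris correction wherever the irises express 1 of the genes. They are given as descriptions with no test. Cyp7a1 exceeded Cyp7b1 in 4 of 5 corrected explants and in 5 of 13 liver-derived samples in all. The ratio was 0.846, 2.31, 4.68, 4.03 and 3.55 in explants 1, 2, 4, 5 and 6, and before correction 0.261, 1.01, 1.80, 1.08 and 1.71. It was 0.146 and 0.354 in livers 2 and 3 and 2.59 in liver 1, 0.936, 0.212 and 0.106 in the hepatocytes, and 0.310 and 0.759 in the spheroids. Liver 1 thus lay among the corrected explants and not with the other livers. With technical library a alone, the ratio of explant 1 went to the other side of 1.

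The ratio of Cyp8b1 to Cyp7b1 was 6.71 to 10.1 in explants 2, 4, 5 and 6 and 1.83 in explant 1. It was 5.47, 2.55 and 1.97 in the livers, 3.59, 1.64 and 1.75 in the hepatocytes and 1.73 and 4.69 in the spheroids. Before correction the explants were at 0.614, 3.52, 2.65, 2.74 and 4.00. Explants 2, 4, 5 and 6 were thus above livers 2 and 3 already, and none was above liver 1. An excess over every liver is therefore present after subtraction only. The irises were at 0.195 to 0.198, so that iris RNA lowers the uncorrected ratio. Cyp27a1 exceeded Cyp7a1 in every liver-derived sample except explant 4, where the ratio was 0.954 after correction and 1.22 before it, and by most in spheroid 1 at 22.7. The ratio of Cyp8b1 to Cyp7a1 ran from 1.43 in explant 4 to 17.5 in liver 2.

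The ratio of Baat to Slc27a5 varied little among livers and hepatocytes. It lay between 0.432 and 0.481 in the livers and between 0.440 and 0.471 in the hepatocytes. In the corrected explants it was 0.490, 0.595, 0.428, 0.725 and 0.591. The spheroids stood apart at 2.13 and 1.30, the only samples in which Baat exceeded its partner.

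**Figure D4:**
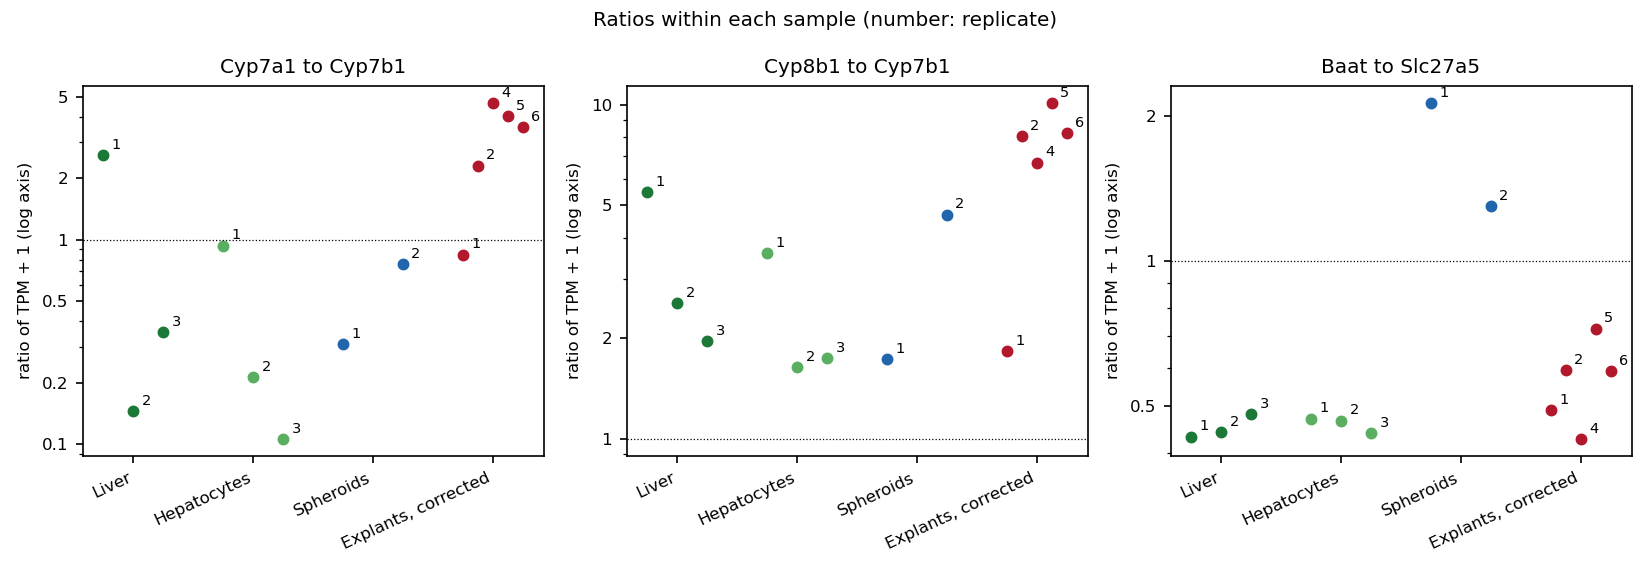
Ratios of TPM + 1 within each sample (log axis; the number beside a point is the replicate) for Cyp7a1 to Cyp7b1, Cyp8b1 to Cyp7b1 and Baat to Slc27a5, in 3 livers, 3 hepatocyte preparations, 2 spheroid samples and 5 corrected explants. The spheroids lie above 1 in the ratio of Baat to Slc27a5 (2.13 and 1.30) and all other samples below it; liver 1 lies with the explants in the ratio of Cyp7a1 to Cyp7b1.

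A list of 10 further genes of bile acid synthesis was read beside the members. In spheroids against hepatocytes 1 rose and 2 fell of 9 tested, and against livers 2 rose and 1 fell of 9 tested (edgeR). Akr1c6, an aldo-keto reductase of steroids, was 72.8 and 72.7 TPM in the spheroids against 1060, 1504 and 1361 TPM in the hepatocytes and 819, 1155 and 1103 TPM in the livers. Its log2 fold changes were -4.50 and -3.94 (edgeR adjusted p = 0.00012 and 0.00020). In the corrected explants Akr1c6 was 1163, 997, 1849, 1237 and 1133 TPM, within or above the livers, and it differed from the spheroids by 4.08 on the log2 scale (limma adjusted p = 0.00044).

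Cyp39a1, which hydroxylates a further oxysterol at the same position as Cyp7b1, went the opposite way. It was 609 and 679 TPM in the spheroids and at most 129 TPM in any liver, hepatocyte preparation, corrected explant or iris. The log2 fold change was 3.63 against hepatocytes and 2.89 against livers (edgeR adjusted p = 0.0067 and 0.0020), and -3.62 in corrected explants against spheroids (limma adjusted p = 0.00081). Acox2, the peroxisomal oxidase of the side chain, was 447 and 540 TPM in the spheroids against 262, 210 and 221 TPM in the livers, a log2 fold change of 0.99 (edgeR adjusted p = 0.0092). Slc27a2, a second ligase, was 336 and 576 TPM in spheroids against 781 to 824 TPM in hepatocytes, with a log2 fold change of -1.12 (edgeR adjusted p = 0.035). In the other comparison neither passed, Acox2 against hepatocytes at 0.30 and Slc27a2 against livers at -0.80 (edgeR adjusted p = 0.45 and 0.073).

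Of 12 regulators of the pathway, 5 fell in spheroids against hepatocytes and 6 against livers, and 0 rose in either (edgeR). Nr0b2, or SHP, a repressor induced by bile acids through FXR, was 181, 394 and 303 TPM in the hepatocytes, 49.9, 176 and 163 TPM in the livers and 20.8 and 3.55 TPM in the spheroids. Its log2 fold change was -4.92 against hepatocytes and -3.55 against livers (edgeR adjusted p = 0.0014 and 0.011). Ppara, a fatty acid sensor, Fgfr4, the receptor of the intestinal signal that represses Cyp7a1, and Mafg, a repressor of bile acid genes, fell as well, by 1.35, 1.19 and 1.13 on the log2 scale against hepatocytes. Nr1h4, or FXR, was 278 and 342 TPM in the spheroids and 263, 288 and 344 TPM in the livers, Hnf4a was 229 and 203 TPM against 234, 211 and 233 TPM, and neither was called.

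In corrected explants against livers 4 regulators fell and 0 rose (limma). Ppara fell by 2.23, Rxra, the partner of many nuclear receptors, by 1.97, Prox1 by 1.19 and Hnf4a by 0.92 on the log2 scale (limma adjusted p = 0.013, 0.0028, 0.037 and 0.015). Of the 10 further synthesis genes 3 fell (Cyp46a1, Abcd3 and Hsd17b4, by 2.40, 1.04 and 0.90) and 1 rose, Ch25h, an enzyme making an oxysterol in many cell types. Corrected Cyp46a1 was 0 in 4 explants because values below 0 were set to 0, and before correction it was 4.59 to 8.29 TPM, within the livers at 3.95 to 9.33 TPM, so its fall appears after subtraction only. The log2 fold change of Ch25h was 5.43 (limma adjusted p = 0.0023). Ch25h was 169, 150 and 159 TPM in the irises and 24.8 to 292 TPM in the corrected explants, against at most 2.61 TPM in the livers, so iris remaining after correction and graft cannot be told apart for it.

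**Figure D5:**
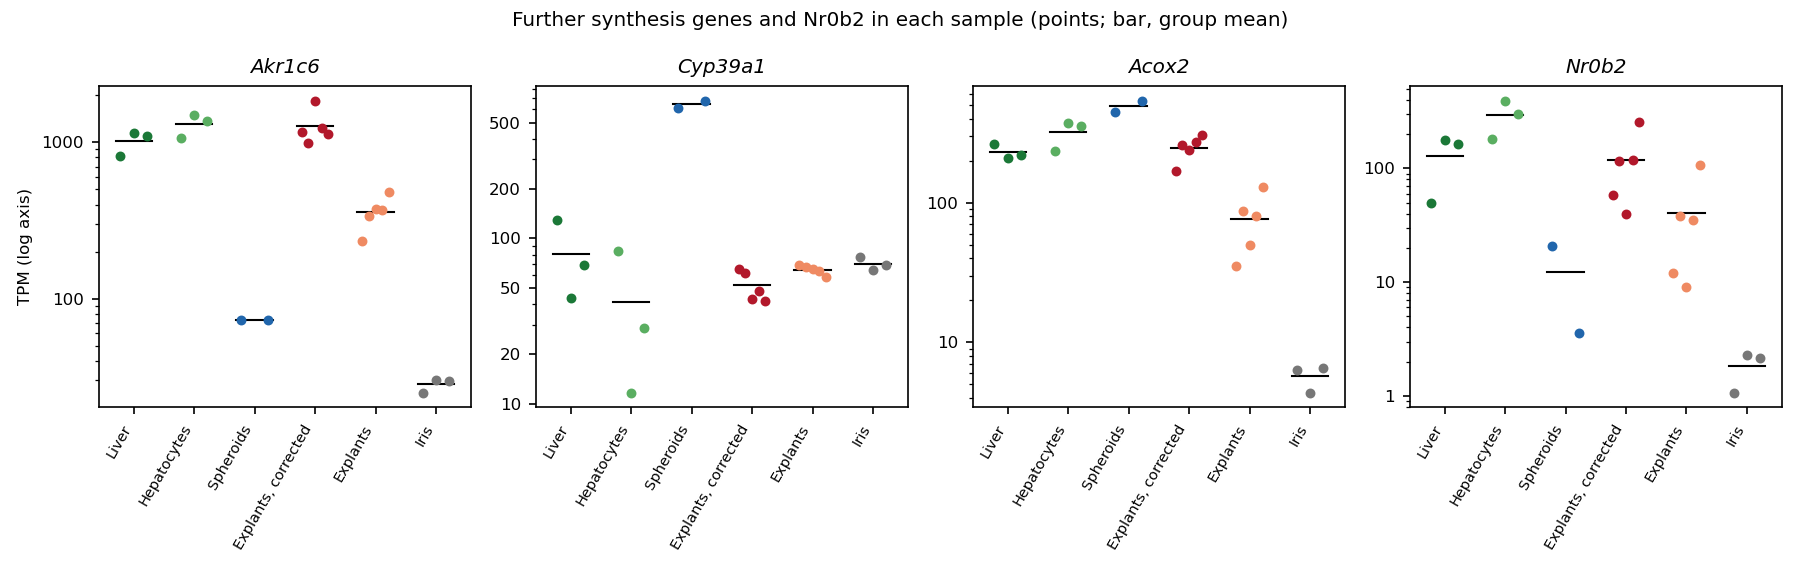
TPM (log axis) of Akr1c6, Cyp39a1, Acox2 and Nr0b2 in each sample, 1 point per sample and a bar at the group mean, with the groups as in the plot of the members. The spheroids are lowest among livers, hepatocytes, spheroids and corrected explants in Akr1c6 (72.8 and 72.7 TPM) and Nr0b2 (20.8 and 3.55 TPM) and highest in Cyp39a1 (609 and 679 TPM) and Acox2 (447 and 540 TPM).

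Other cell types and cell states moved with some of these comparisons. Macrophage markers, 11 genes, summed to 247 to 460 TPM in the hepatocytes, 758 to 1311 in the livers, 1028 to 1251 in the spheroids and 2324 to 5956 in the corrected explants. In the irises they summed to 752 to 804 TPM. Of these genes 7 rose and 1 fell in corrected explants against livers (limma), so the sum does not stand for each of them. Clec4f was 0 to 11.2 TPM in the corrected explants against 31.3 to 123 in the livers, and Cd5l 6.05 to 57.8 against 108 to 145. Of 9 male-biased liver genes, 7 fell in spheroids against hepatocytes and 6 against livers (edgeR). Cyp4a12a was 4.71 and 2.99 TPM in the spheroids and 0.429 to 127 TPM in the corrected explants. Cyp7b1 is itself known to be higher in male mouse liver. Of 10 genes of the response to dissociation, 8 rose in hepatocytes against livers, 6 fell and 1 rose in spheroids against hepatocytes, and 5 rose in corrected explants against livers (limma), while 8 of 9 tested rose in spheroids against livers. Fos, among them, was 215, 502 and 341 TPM in the hepatocytes and at most 4.15 TPM in the livers. Of 8 markers of sinusoidal endothelium, 7 fell in spheroids and 4 in corrected explants against livers, and their sum was 276 to 360 TPM in the livers, 75.4 to 84.3 in the spheroids and 28.3 to 207 in the corrected explants. Of 10 daily rhythm genes, 7 fell and 1 rose in corrected explants against livers. Corrected Dbp, Tef, Hlf, Nr1d2, Per2, Per3 and Ciart were 0 in all 5 explants, since values below 0 were set to 0. Before correction none of them lay wholly below the livers, so their fall below the livers appears after subtraction only. Against irises, uncorrected explants had 7 of the 10 rhythm genes lower and 1 higher (edgeR). Of all genes tested there, 2.74% fell and 9.04% rose. Before correction Tef was 54.1 to 70.4 TPM in the explants, 53.3 to 79.1 in the livers and 132 to 141 in the irises. The part of these cell types and states in the members' values was not tested. In bulk samples fewer cells of a type and less RNA per cell cannot be told apart.

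Across the 11 samples other than explants, the genes of at least 5 TPM whose log2 levels followed Cyp7a1 most closely were Adh7, Maob and Cyp4a14 (Pearson r of 0.983, 0.983 and 0.981 among 12859 genes). Those closest to Cyp7b1 were Mup1, Nudt7 and Mup7 (r of 0.988, 0.983 and 0.980). The points share the contrast of 3 irises with 8 liver-derived samples, and the values are a description. Maob, for example, was 391, 295 and 296 TPM in the hepatocytes, 386, 231 and 330 TPM in the livers, 211 and 310 TPM in the spheroids and 79.0 to 95.5 TPM in the irises.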

How the data were processed

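Total RNA was sequenced with Smart-seq3 in 48 libraries, 3 technical libraries for each of 16 samples. The authors aligned reads with TopHat2, removed duplicates with UMI-tools and SAMtools and counted them with featureCounts over exons of mm10 without regard to strand; a read overlapping several genes was counted for each. The deposited counts per sample equal the sum of the technical libraries in 100% of cells, and 92 ERCC rows with 418 counts in all were left out. The deposited TPM were made by the authors from these counts and gene lengths. The deposited explant values after iris subtraction are treated as a score, since for explant 4 the fraction was subtracted from the iris mean, where the others used the product. The iris share was solved from these tables and 1 formula, (TPM - iris mean × share) / (1 - share) with values below 0 set to 0, was applied to all 5 explants.

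Counts were tested in pairs of groups by the quasi-likelihood method of edgeR 4.0.16 after its default filter on low counts and TMM scaling, and corrected explants with limma 3.58.1 (trend) on log2(TPM + 1) for genes with a mean of at least 1 TPM, in R 4.3.3. Calls are at a Benjamini-Hochberg adjusted p under 0.05 over all genes, with no fold limit. The labels do not say that samples of a group come from separate animals, so p-values measure the spread between these samples. Equal sample numbers across groups were checked as pairs by the correlation of deviations from group means, and were not treated as pairs.

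The members and lists were chosen with earlier results of these data known. Named are all members, from each list called genes, at most 4 per comparison by size of change, and the 3 genes most like Cyp7a1 and Cyp7b1. Named after their values were seen were Nr1h4, Dbp, Tef, Hlf, Nr1d2, Per2, Per3, Ciart, Clec4f, Cd5l, Cyp4a12a, Cyp2b9, Fos, Ddx3y, Xist and Apob. Alternatives were DESeq2 1.42.0, limma-voom, other scalings and filters, technical library a, other iris shares, and each sample left out. The tests were checked on simulated data. The matrix of 48 libraries without gene names was not used.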

Additional observations from a re-analysis of the deposited data

Results flagged for a closer look

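Of 25 measures tested over the 5 explants (10 members before and after iris correction, and 5 ratios), 1 had a single explant far from the others by Dixon's criterion, and chance flags about 1 in 20 such groups. The log2 ratio of Cyp8b1 to Cyp7b1 was 0.87 in explant 1, whereas explants 2, 4, 5 and 6 lay between 2.75 and 3.34. Explant 1 had the highest iris share (82%) and the lowest Cyp8b1 before correction (27.1 TPM, against 109 to 185 TPM), while explant 4, with a share of 81%, had the highest corrected Cyp8b1 (716 TPM).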

How the results depend on the processing

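Members called were 5 in spheroids against hepatocytes, 3 against livers, 0 in hepatocytes against livers, 9 in explants against irises, 10 in irises against livers, and, after correction, 3 in explants against livers and 0 against spheroids. Without a filter on low counts they were 8, 7 and 2 in the first 3 comparisons. Hepatocytes against livers gave 1 with DESeq2 and with all 5 groups in 1 fit. Explants against irises gave 4 with limma-voom. Corrected explants against livers gave 9 without iris correction, 0 with the iris share from the median ratio of iris genes, 1 with the deposited values and 1 with a log2 fold change over 1. Against spheroids they gave 5 without correction and 3 when uncorrected values were scaled to hepatocyte markers. Leaving out 1 sample gave 3 to 9, 1 to 6, 0 to 1, 6 to 9, 10 to 10, 0 to 3 and 0 to 0 in the order above. A minimum of 10 counts in every sample removed Cyp7a1 and Akr1d1 from both comparisons with irises. The causes of these shifts were not tested.

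No source says that equal sample numbers mark a shared animal. With the number as a replicate block over the samples that share one, the members called were 8, 4, 1, 9, 10, 0 and 0. The same samples without the block, an alternative chosen after seeing the data, gave 3 in spheroids against hepatocytes, 1 against livers, 4 in explants against irises and 0 in corrected explants against livers. Same-numbered samples correlated in their deviations from group means by -0.11 to 0.19.

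The following fitted log2 differences changed sign. Baat in spheroids against hepatocytes was -0.021 with limma-voom, -0.012 with technical library a and -0.0094 with all 5 groups in 1 fit, and -0.39 to 0.33 with 1 sample left out. Against livers Baat ran from -0.066 to 0.64 and Scp2 from -0.49 to 0.21 with 1 sample left out. Scaling to hepatocyte markers gave Scp2 0.14 against hepatocytes and 0.35 against livers, and in hepatocytes against livers Cyp7a1 -0.014 and Akr1d1 -0.030. Cyp7a1 in hepatocytes against livers ran from -0.44 to 0.53 with 1 sample left out. In corrected explants against livers Cyp7a1 was -1.56 without correction, -0.35 with the replicate block and with the same samples without it, and -0.26 to 0.68 with 1 sample left out. There Baat was 0.094 with the median ratio share, and with uncorrected values scaled to markers Hsd3b7 was 0.19 and Scp2 0.11. Against spheroids, without correction, Cyp7a1 was -0.057, Cyp8b1 -1.38, Hsd3b7 -0.87, Akr1d1 -1.02, Amacr -0.38 and Slc27a5 -1.01. Scaled to markers, Cyp8b1 was -0.084 and Cyp7b1 0.22, and with the replicate block or its samples alone Cyp8b1 was -0.16 and Hsd3b7 -0.13. With 1 sample left out Cyp8b1 ran from -0.66 to 1.51 and Akr1d1 from -0.17 to 1.82. The log2 ratio of Cyp7a1 to Cyp7b1 in explant 1 was 0.28 with technical library a, against -0.24. Without iris correction, an alternative added after seeing the data, the log2 ratio of Cyp8b1 to Cyp7b1 in explant 1 was -0.70 and that of Cyp27a1 to Cyp7a1 in explant 4 was 0.29, and Cyp7a1 exceeded Cyp7b1 in 5 of 13 samples as before.

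Over all genes, 1526 rose and 1637 fell in spheroids against hepatocytes, but 2587 and 1104 with library size alone and 5547 and 666 with marker scaling. Marker scaling gave 4360 and 1018 against livers (from 1950 and 1944), 52 and 906 in hepatocytes against livers (from 96 and 347; 66 and 563 with library size), 17497 and 530 in explants against livers (from 2554 and 736) and 15073 and 331 against spheroids (from 1078 and 217). Library size gave 1367 and 890 in explants against irises (from 1515 and 460) and 9043 and 3148 in irises against livers (from 6042 and 5334). Totals over all alternatives ran from 1869 to 6213, 2010 to 6235, 8 to 2251, 612 to 2438, 8019 to 12659, 0 to 18027 and 165 to 15404 in the order of comparisons above. The precision of every spheroid value is limited by having 2 samples.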
